A study of Mus musculus with 6 samples.

Results

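The NF-kappaB subunits and the inhibitors that NF-kappaB itself induces were followed as a set of 10 named genes, looked up by symbol among the 55291 symbols of the count table, and all 10 were found and tested. They are the subunit genes Nfkb1, Nfkb2, Rel, Rela and Relb, and the inhibitor and regulator genes Nfkbia, Nfkbie, Nfkbiz, Tnfaip3 and Birc3. RNA came from ILC1s (type 1 innate lymphoid cells) and from NK (natural killer) cells, both group 1 innate lymphocytes, which were sorted from MC38 tumours of wild-type C57BL/6 mice. MC38 is a colon carcinoma cell line of C57BL/6 origin. The cells had been injected under the skin, the tumours were taken on day 14, and no group received a further treatment or carried an engineered allele. Each cell type had 3 libraries, and the comparison asked how the transcripts of ILC1s and NK cells of the same tumour model differ. The sources used here give neither the age of the mice nor the gates of the sort. Whether the libraries came from separate mice or from pools is not stated either, and p-values therefore describe the spread among these libraries only, which may be technical.

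NF-kappaB is a family of dimeric transcription factors that switch on survival, cytokine and inflammatory genes. In resting cells the dimers are held by IkB proteins in the cytoplasm. Receptors for TNF family ligands, IL-1, IL-18 and antigen activate the IKK kinases, IkB is degraded, and dimers of RelA or c-Rel with p50 (the product of Nfkb1) enter the nucleus. A slower branch, run by the kinase NIK, turns the p100 product of Nfkb2 into p52, which pairs with RelB. The nuclear dimers then raise the transcripts of their own brakes, among them IkB-alpha (Nfkbia), IkB-epsilon (Nfkbie), A20 (Tnfaip3) and cIAP2 (Birc3). In NK cells and ILC1s this pathway acts downstream of cytokine receptors and of several activating receptors.

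The promoters of the feedback genes are shown because they carry the letters that NF-kappaB dimers read. RefSeq promoter windows on the GRCm38.p6 build, the 250 bases before a transcript start, were matched by symbol for 7 of the 10 genes, with no window for Nfkb1, Relb and Nfkbiz. The NF-kappaB consensus site was searched on both strands. The stretches below lie next to the start and outside the annotated exons, in the direction of transcription, with the matches in capitals.
Nfkbia, chr12:55492648-55492787, minus strand: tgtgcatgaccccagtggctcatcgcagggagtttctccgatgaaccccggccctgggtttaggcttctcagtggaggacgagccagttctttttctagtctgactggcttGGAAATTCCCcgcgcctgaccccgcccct
Rel, chr11:23770971-23771110, minus strand: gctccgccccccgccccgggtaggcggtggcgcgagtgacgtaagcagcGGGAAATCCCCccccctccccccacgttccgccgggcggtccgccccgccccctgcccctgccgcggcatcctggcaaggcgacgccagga
Tnfaip3, chr10:19015411-19015547, minus strand: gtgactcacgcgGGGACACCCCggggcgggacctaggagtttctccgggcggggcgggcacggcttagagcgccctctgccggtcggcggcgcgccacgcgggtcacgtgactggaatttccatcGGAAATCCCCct
Nfkbie, chr17:45555560-45555699, plus strand: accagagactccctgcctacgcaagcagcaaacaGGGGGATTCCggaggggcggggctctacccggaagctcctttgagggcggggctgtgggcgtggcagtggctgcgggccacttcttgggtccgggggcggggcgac
The match in Nfkbia is GGAAATTCCC, 29 to 20 bases before the start. In Rel, GGGAAATCCC overlaps a second match, and the run of capitals spans both, 92 to 82 bases before the start. Tnfaip3 holds GGGACACCCC and, 12 to 3 bases before the start of that RefSeq window, GGAAATCCCC. The printed Tnfaip3 stretch lies inside the annotated gene (19000910 to 19015657). Ahead of it, 110 bases of the same window lie in an annotated Tnfaip3 exon. A second Tnfaip3 window held 0 matches. Nfkbie holds GGGGGATTCC, 106 to 97 bases before the start. The first Nfkb2 window, inside an annotated exon and so not printed, holds GGGAATTCCC and GGGGCTTTCC. A match was found for 5 of the 7 genes (Nfkb2, Rel, Nfkbia, Nfkbie and Tnfaip3) and not for Rela or Birc3. Over all windows of the same length, 2368 of 32536 (7.28%) held a match, and over all gene symbols with a window 2225 of 27025 (8.23%). A match describes letters only, and none of the libraries measured binding there.

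The libraries held 16931099 to 20224847 counts each. The labels were checked against defining genes. Ncr1 and Klrb1c, receptors of group 1 innate lymphocytes, were found in every library, at 330 to 656 and 339 to 1057 CPM (counts scaled by library size with TMM factors). The NK cell genes Eomes, Itga2 and S1pr5 summed to 730, 758 and 469 CPM in the NK libraries and to 193, 149 and 72.8 CPM in the ILC1 libraries, and the ILC1 genes Itga1, Cxcr6, Il7r and Cd200r1 to 74.7, 65.8 and 92.9 against 272, 238 and 447 CPM. Other lists cut across the labels in part. A list of 7 fibroblast genes summed to 905 CPM in NK replicate 3 and to 1080 and 1620 CPM in ILC1 replicates 1 and 2. It summed to 4.94 and 12.7 CPM in the remaining NK libraries and to 54.5 CPM in ILC1 replicate 3. Lum was at 0 counts in NK replicates 1 and 2 and Pdgfra in NK replicate 1. A list of 11 macrophage genes summed to 13387 CPM in ILC1 replicate 3 and to between 110 and 387 CPM in the other 5 libraries, with all its genes detected in every library but Mrc1, which was at 0 counts in NK replicate 2. By gene, 6 of the 11 lay higher in every ILC1 library than in any NK library. So did 4 of 9 T cell genes (1 lay lower) and 3 of 5 tested dendritic cell genes (0 lower), beside 12.5% of all genes. NK replicate 3 had its highest correlation of log2 CPM with ILC1 replicate 1, at 0.977, and lower ones with NK replicates 1 and 2, at 0.879 and 0.880. Log2 fold changes and list medians that moved by over 1.5 times without NK replicate 3 or without ILC1 replicate 3 are also given without that library. The part that cells other than ILC1s and NK cells had in any result was not tested. In RNA from many cells, fewer cells of a type and less RNA per cell cannot be told apart.

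None of the 10 genes passed the test between cell types. With edgeR's quasi-likelihood test and Benjamini-Hochberg adjustment over 14475 genes, 0 members were called, beside 12 of all genes (0.0829%). At an unadjusted p under 0.05 there were 3 members, Relb, Rel and Birc3, beside 2283 of all genes (15.8%). In the same 3 genes the libraries of the 2 cell types did not overlap, beside 25.8% of all genes. The median log2 fold change (ILC1 minus NK) of the members was 0.00033, and that of all genes tested was 0.081. The members' median was 0.091 without NK replicate 3, -0.20 without ILC1 replicate 3, -0.23 with limma-voom and library weights and -0.15 with library sets as a term (below). DESeq2 and limma-voom also called 0 members, beside 6.98% and 0.124% of all genes. Each had 3 members at an unadjusted p under 0.05, beside 2560 (DESeq2) and 2450 (limma-voom) of the 14475 genes.

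**Figure D1:**
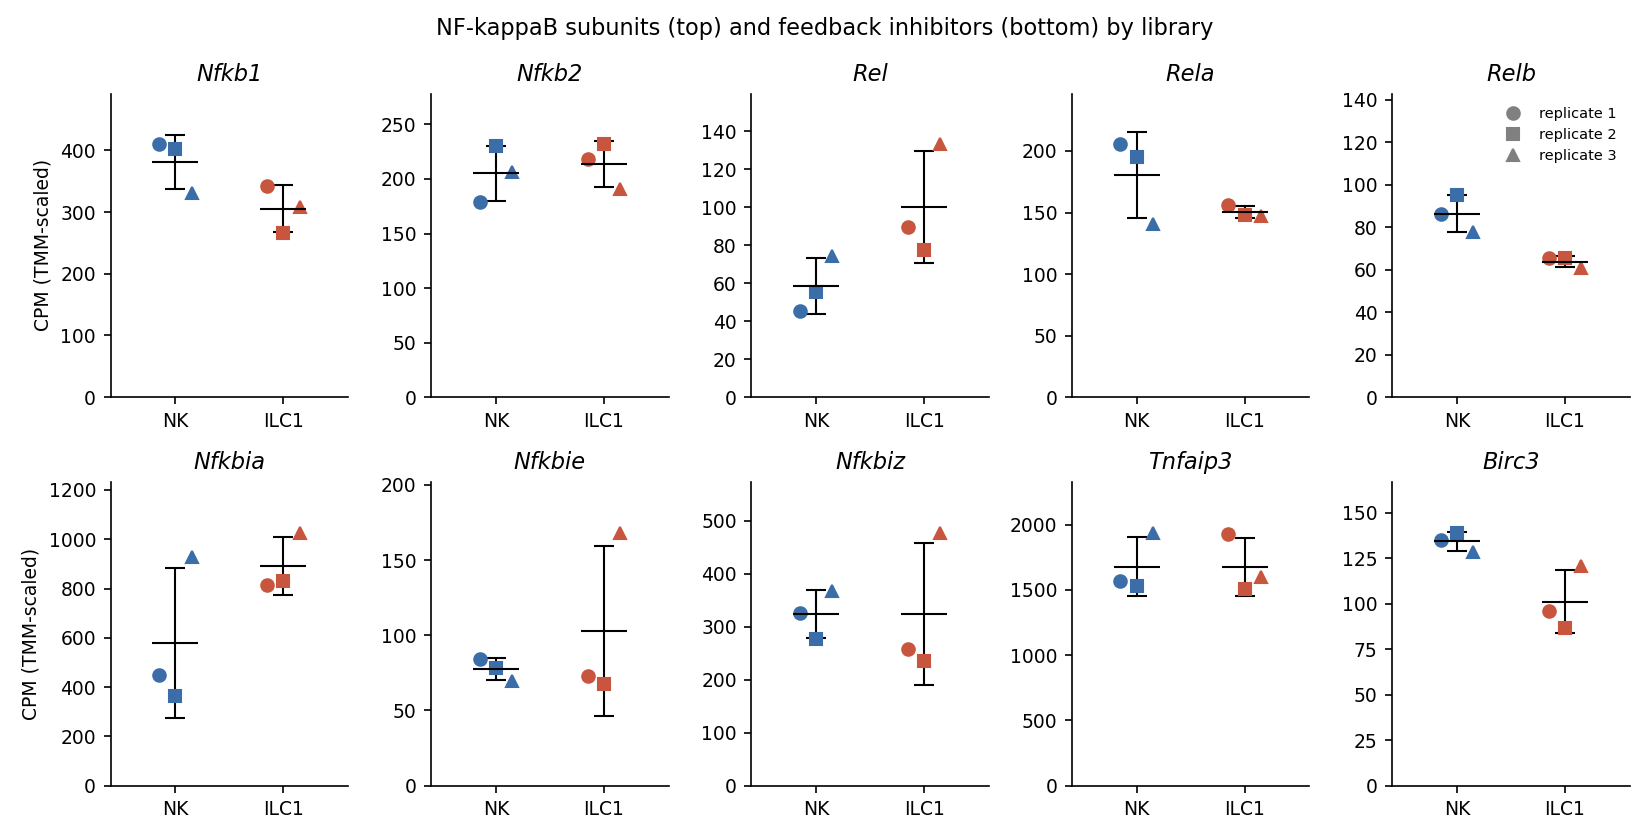
CPM (TMM-scaled, vertical axes from 0) of the 5 subunit genes (top) and the 5 inhibitor genes (bottom) in the 3 NK and 3 ILC1 libraries. Points are libraries, and bars are the mean and SD. Rel lies higher and Relb and Birc3 lie lower in all ILC1 libraries than in all NK libraries, and the other 7 genes overlap.

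Rel, on chromosome 11 (23736847 to 23770970, minus strand, 10 merged exons), encodes c-Rel, the subunit most tied to lymphocyte activation. Its level was 45.2, 55.6 and 74.5 CPM in NK replicates 1 to 3 and 89.7, 77.3 and 133 CPM in the ILC1 replicates. Every ILC1 library lay above every NK library, with the narrowest gap between NK replicate 3 and ILC1 replicate 2. The means were 58.5 ± 14.9 CPM in NK cells and 100.1 ± 29.4 CPM in ILC1s (SD, n = 3 each), a 1.71-fold ratio. On the log2 scale the difference was 0.78 ± 0.28 (SE; 95% interval 0.099 to 1.45), with an adjusted p of 0.282 by edgeR. The highest ILC1 value came from the library with the macrophage genes, and without that library the log2 fold change was 0.50. Among the 3 libraries rich in fibroblast genes, where NK replicate 3 is set against ILC1 replicates 1 and 2 (the fit with library sets as a term), it was 0.16. Here and below, that fit rests on a single NK library, set against the libraries it correlated with best over all genes. Its sets were chosen with these same data known. A value near 0 in it therefore cannot decide whether the cell types differ.

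Relb, on chromosome 7 (19606217 to 19629438, minus strand, 15 merged exons), encodes RelB, the partner of p52 in the slower branch. Its level was 86.1, 95.2 and 77.6 CPM in the NK libraries and 65.2, 65.3 and 60.8 CPM in the ILC1 libraries. All ILC1 values were below all NK values, and the ILC1 libraries were close together. The means were 86.3 ± 8.83 and 63.8 ± 2.59 CPM, 1.35-fold higher in NK cells. This gave a log2 fold change of -0.44 ± 0.12 (95% interval -0.74 to -0.13) with an adjusted p of 0.215. Of the members Relb had the smallest p, and its place among all genes by p was 819 of 14475. Its log2 fold change stayed between -0.50 and -0.25 over 15 alternatives, the value nearest 0 coming from the fibroblast-rich libraries alone. One alternative, limma-voom with estimated library weights, called it, with an adjusted p of 0.0405 (up to 0.717 in the others). That fit called 2212 of all genes (15.3%).

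Rela, on chromosome 19 (5637483 to 5648130, plus strand), encodes RelA or p65, the main transactivating subunit of the fast branch. Its level was 206, 195 and 141 CPM in the NK libraries and 156, 148 and 147 CPM in the ILC1 libraries. NK replicates 1 and 2 stood above the ILC1 libraries and NK replicate 3 below them, so the groups overlapped. The log2 fold change was -0.26 ± 0.17, with an adjusted p of 0.50. It was -0.41 without NK replicate 3, and within the fibroblast-rich libraries it turned to 0.11. Nfkb1, on chromosome 3 (135584655 to 135691547, minus strand), encodes p105 and its product p50. Its level was 410, 403 and 331 CPM in the NK libraries and 343, 266 and 308 CPM in the ILC1 libraries. The groups overlapped through NK replicate 3 and ILC1 replicate 1, and the log2 fold change was -0.32 ± 0.16 with an adjusted p of 0.388. Within the fibroblast-rich libraries Nfkb1 was -0.12. Nfkb2, on chromosome 19 (46304320 to 46312385, plus strand), encodes p100 and p52. Its level was 179, 230 and 206 CPM in the NK libraries and 219, 232 and 190 CPM in the ILC1 libraries, with full overlap and a log2 fold change of 0.060 ± 0.15 (95% interval -0.31 to 0.43), which was 0.12 without ILC1 replicate 3. Of the 50-base windows of Nfkb2 transcripts, 14.9% also occur, on the other strand, in the genes AC114539.1 and Psd, and the sources used here do not say whether strand was used in counting. Psd itself reached at most 43.0 CPM.

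Levels of different genes were compared per length, as RPKM, the CPM divided by the length of the merged exons in kilobases. Together the 5 subunits had 168, 179 and 148 RPKM in the NK libraries and 156, 148 and 149 RPKM in the ILC1 libraries, which overlapped. On average Rela held the largest share of that sum in NK cells (35.4% ± 4.44) and in ILC1s (32.5% ± 0.195). Rel held the smallest (4.83% ± 1.68 and 8.91% ± 2.72). The shares depend on the length used, which counts all annotated exons, 12061 bases for Nfkb1 and 3072 for Rela. In CPM, without length, Nfkb1 had the highest mean of the 5, 381 in NK cells and 305 in ILC1s. Rela had 181 and 150 CPM. The share of Rel was 3.60%, 4.16% and 6.74% in the NK libraries and 7.72%, 6.99% and 12.02% in the ILC1 libraries. The share of Relb was 13.2%, 13.7% and 13.5% in the NK libraries and 10.8%, 11.4% and 10.5% in the ILC1 libraries. These groups did not overlap in either share, and NK replicate 3, which over all genes correlated best with ILC1 replicate 1, had a Relb share between those of the other NK libraries. The share of Nfkb1 also lay lower in every ILC1 library, by 2.36 percentage points on average.

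**Figure D2:**
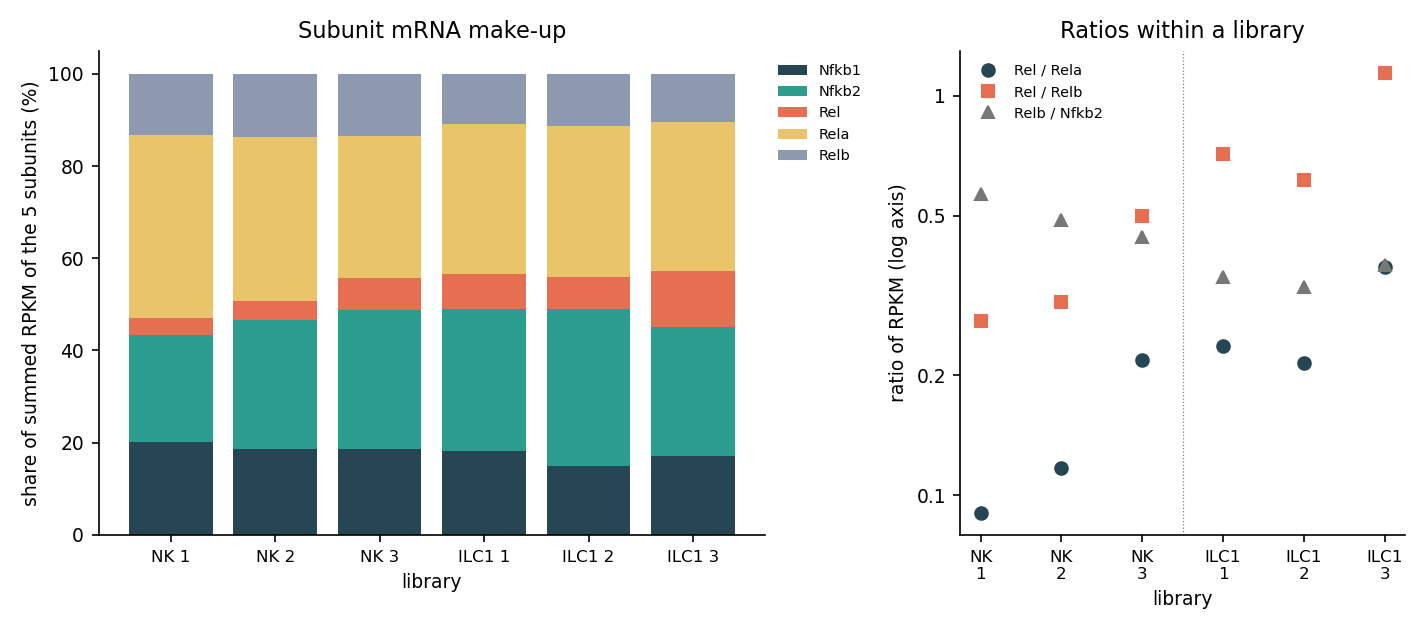
Left, the share (%) of each subunit gene in the summed RPKM of the 5 subunits, by library. Right, RPKM ratios within a library on a log axis. The ratio of Rel to Relb lies at 0.273 to 0.50 in the NK libraries and at 0.615 to 1.14 in the ILC1 libraries.

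Ratios within a library need no scaling between libraries. Rel to Relb was 0.273, 0.304 and 0.50 in the NK libraries and 0.715, 0.615 and 1.14 in the ILC1 libraries. Relb to Nfkb2, the pair of the slower branch, was 0.567, 0.489 and 0.444 in NK cells and 0.352, 0.332 and 0.377 in ILC1s. Neither ratio overlapped between cell types. Rel to Rela did overlap, at 0.0904, 0.117 and 0.218 against 0.237, 0.214 and 0.373. Of 15 shares, ratios and sums computed, 5 did not overlap, each with p = 0.1 in a two-sided exact permutation test, the smallest that 3 against 3 libraries allow, and an adjusted p of 0.3. The ratios were formed from the same counts as the tests of single genes and are no separate evidence.

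Nfkbia, on chromosome 12 (55489410 to 55492647, minus strand, 6 merged exons), encodes IkB-alpha, the inhibitor that is degraded and then made anew in each round of activation. Its level was 447, 365 and 927 CPM in the NK libraries and 815, 832 and 1027 CPM in the ILC1 libraries. NK replicates 1 and 2 were the low libraries, and NK replicate 3 lay with the ILC1 libraries, above 2 of them. The means were 580 ± 303 and 891 ± 118 CPM, and the log2 fold change was 0.62 ± 0.37 (95% interval -0.28 to 1.52) with an adjusted p of 0.460. Without NK replicate 3 its log2 fold change was 1.14 with an adjusted p of 0.04995 (up to 0.862 in the other alternatives), a call in a fit where 250 genes were called higher and 199 lower (3% of all genes). Within the fibroblast-rich libraries it was -0.17. The summed immediate early and heat shock genes, which respond to handling as well as to activation, were 8013, 6930 and 10540 CPM in the NK libraries and 9707, 8759 and 11093 CPM in the ILC1 libraries, again with NK replicates 1 and 2 lowest. Single genes of that list did not all follow this order, while Atf3 and Egr2 did (below). Fos was lowest in ILC1 replicates 1 and 2 (247 and 211 RPKM) and Jun in ILC1 replicate 3 (234 RPKM). The part of these genes in the Nfkbia levels was not tested.

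Nfkbie, on chromosome 17 (45555703 to 45563169, plus strand), encodes IkB-epsilon, a slower inhibitor of RelA and c-Rel dimers. Its level was 84.2, 78.4 and 69.5 CPM in the NK libraries and 72.9, 67.8 and 168 CPM in the ILC1 libraries. One library, ILC1 replicate 3, held the high value, and the other 5 lay within 67.8 to 84.2 CPM. Its log2 fold change of 0.41 ± 0.37 turned to -0.15 without that library. Nfkbiz, on chromosome 16 (55811375 to 55838899, minus strand), encodes IkB-zeta, a nuclear IkB protein that works with p50 at a subset of targets. Its level was 327, 276 and 367 CPM in the NK libraries and 258, 235 and 478 CPM in the ILC1 libraries. ILC1 replicate 3 was the highest of the 6 and the other ILC1 libraries were the lowest. With all libraries the log2 fold change was 0.0021 ± 0.30, and it was 0.11 without NK replicate 3, -0.40 without ILC1 replicate 3 and -0.57 within the fibroblast-rich libraries, and its sign changed with the normalization. The macrophage genes were high in the same library, and their part in the Nfkbie and Nfkbiz levels was not tested.

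**Figure D3:**
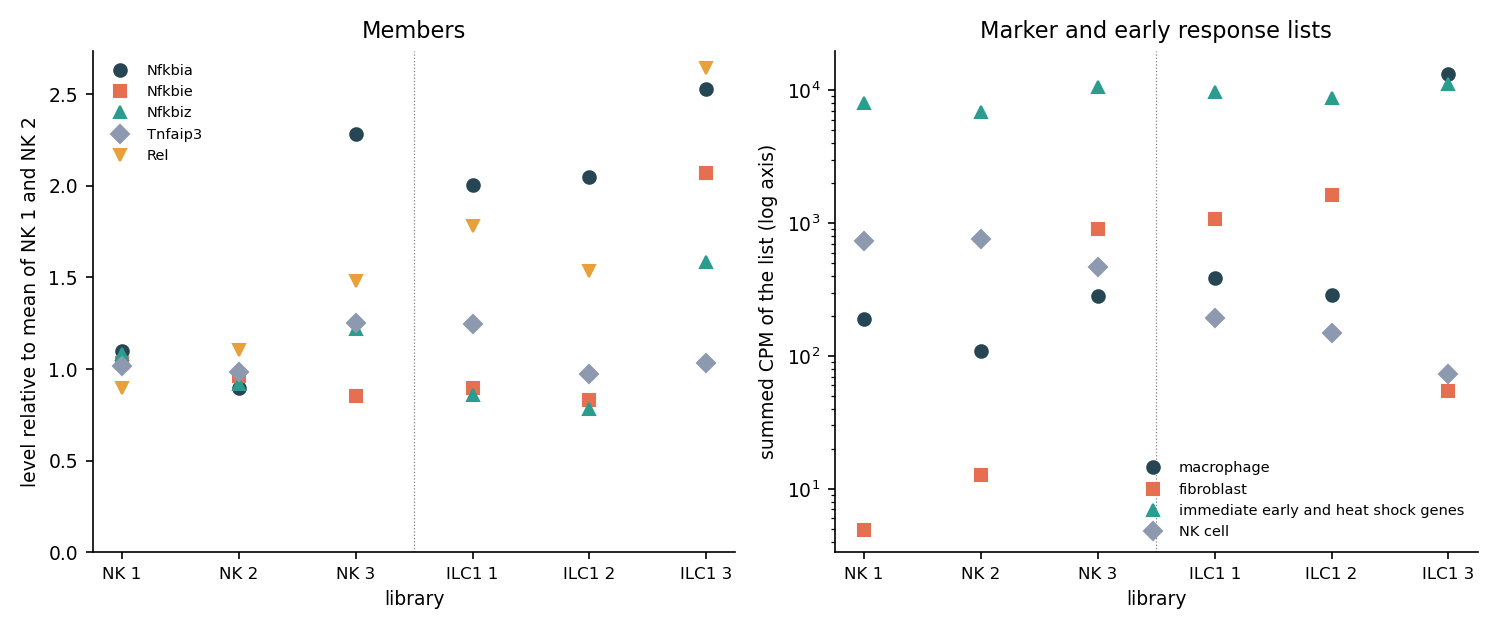
Left, levels of 5 members in each library relative to the mean of NK replicates 1 and 2. Right, summed CPM of marker and early response lists on a log axis. Nfkbia is low only in NK replicates 1 and 2 of the 6 libraries shown, Nfkbie is high in ILC1 replicate 3, and Tnfaip3 differs little between libraries.

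Tnfaip3, on chromosome 10 (19000910 to 19015657, minus strand, 9 merged exons), encodes A20, which edits ubiquitin chains on signalling proteins and so ends IKK activation. Its level was 1571, 1527 and 1940 CPM in the NK libraries and 1927, 1506 and 1598 CPM in the ILC1 libraries. The groups overlapped fully, with means of 1679 ± 227 and 1677 ± 221 CPM. The log2 fold change was -0.0015 ± 0.17, and its 95% interval, -0.42 to 0.42, bounds the difference that these libraries allow, while its sign changed with the normalization. It was 0.12 without NK replicate 3 and 0.018 without ILC1 replicate 3. By mean level Tnfaip3 stood above 99.7% of the genes tested. Birc3, on chromosome 9 (7848699 to 7873186, minus strand), encodes cIAP2, a ubiquitin ligase that carries TNF receptor signals to IKK and, with TRAF proteins, keeps NIK low. Its level was 135, 139 and 129 CPM in the NK libraries and 96.1, 86.7 and 120 CPM in the ILC1 libraries. All ILC1 values lay below all NK values, the nearest being ILC1 replicate 3. Its log2 fold change was -0.41 ± 0.15 (95% interval -0.79 to -0.033) with an adjusted p of 0.297. It was -0.57 without ILC1 replicate 3 and -0.49 within the fibroblast-rich libraries, and limma-voom with library weights called it (adjusted p 0.0280, up to 0.633 in the other alternatives). Of the 50-base windows of Birc3, 7.56% also occur in other transcripts, mostly Gm7019 and the neighbouring copy Birc2, so a part of its reads may be shared or lost.

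**Figure D4:**
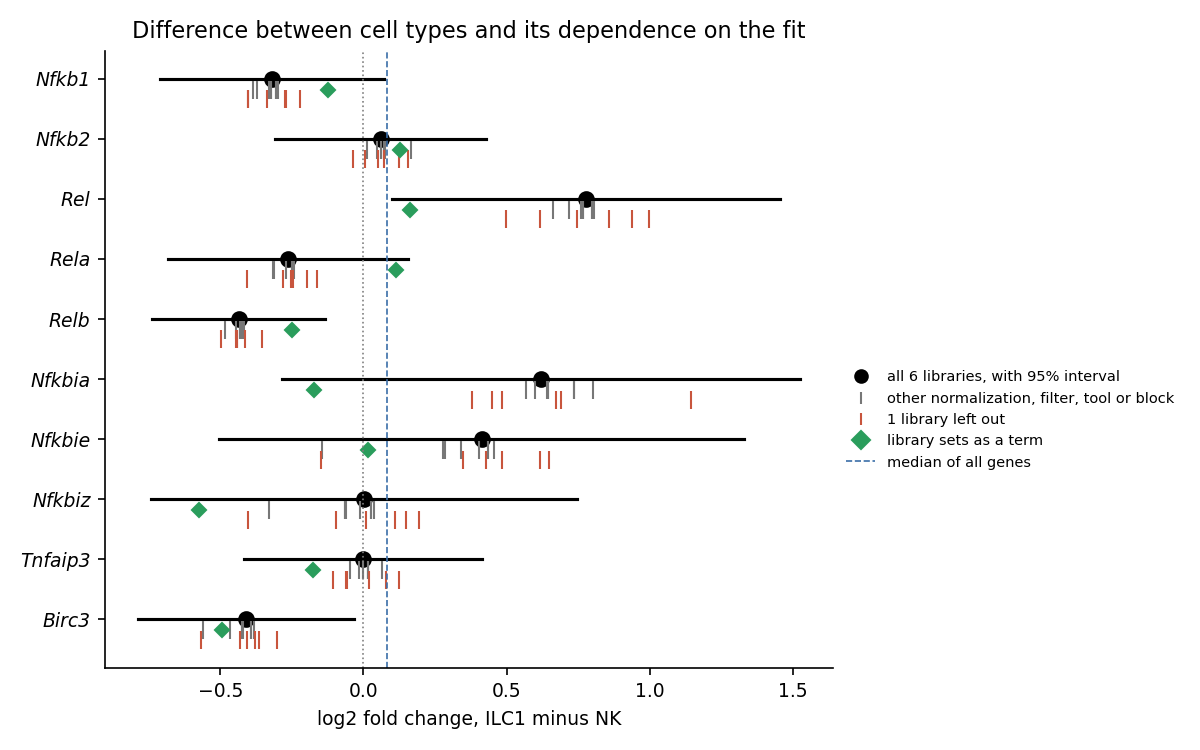
Log2 fold change (ILC1 minus NK) of the 10 genes with its 95% interval from all 6 libraries (black), under other normalizations, filters, tools and the replicate block (grey), with 1 library left out (red) and with library sets as a term (green). Relb, Birc3 and Nfkb1 stay below 0 and Rel above 0 in all 15 alternatives, and the other 6 genes reach both sides.

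The order of the 10 genes per length was led by the inhibitors in both cell types. In NK cells it ran from Nfkbia (360.1 ± 188 RPKM) over Tnfaip3 (232 ± 31.4), Nfkbiz (64.5 ± 9.06), Rela (58.8 ± 11.4), Nfkb2 (44.7 ± 5.54), Nfkb1 (31.6 ± 3.63), Birc3 (26.8 ± 1.05), Nfkbie (25.4 ± 2.43) and Relb (22.2 ± 2.27) to Rel (7.83 ± 1.99). In ILC1s it ran from Nfkbia (553 ± 73.2 RPKM) over Tnfaip3 (232 ± 30.6), Nfkbiz (64.5 ± 26.7), Rela (48.96 ± 1.53), Nfkb2 (46.6 ± 4.62), Nfkbie (33.8 ± 18.6), Nfkb1 (25.3 ± 3.19), Birc3 (20.2 ± 3.48) and Relb (16.4 ± 0.665) to Rel (13.4 ± 3.94). Neighbours whose libraries did not overlap were Tnfaip3 and Nfkbiz (3.60-fold in each cell type), Nfkb2 and Nfkb1 in NK cells, Relb and Rel in NK cells (2.84-fold), Nfkbia and Tnfaip3 in ILC1s (2.39-fold), and Birc3 and Relb in ILC1s. All other neighbours overlapped. Nfkbia lay above Tnfaip3 in every library when compared within it. Counted without length, Tnfaip3 stood first and Nfkbia next in both cell types. Nfkb1 then moved from place 6 to 3 in NK cells and from 7 to 4 in ILC1s.

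Genes around the members were taken by role from lists. The other IkB proteins included Bcl3, a nuclear partner of p50 and p52, at 62.8, 82.6 and 49.6 CPM in NK cells and 46.1, 38.7 and 48.3 CPM in ILC1s. Its groups did not overlap, and its log2 fold change was -0.55 ± 0.22 with an adjusted p of 0.306. Limma-voom with library weights called it lower, at -0.65, and within the fibroblast-rich libraries it was -0.23. Nfkbid, which encodes IkBNS, another nuclear IkB protein, overlapped, with a log2 fold change of -0.26 ± 0.25 and an adjusted p of 0.648. It was -0.0097 without NK replicate 3 and -0.70 within the fibroblast-rich libraries. Of the 4 genes of this list 0 were called by edgeR, DESeq2 or limma-voom, and 1, Bcl3, had an unadjusted p under 0.05. Over all genes 15.8% had such a p.

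Of 11 genes of the IKK and upstream kinase list 0 were called by edgeR, DESeq2 or limma-voom, and 1, Tab2, had an unadjusted p under 0.05. Over all genes 15.8% had such a p. The list also holds partners of the kinases, such as Tab2 and Ikbkg. Of its 11 genes 1 had a positive and 10 a negative log2 fold change, where 44% of all genes were negative. The list median was -0.23. In 4 of the 11 all ILC1 libraries lay below all NK libraries, as in 13.3% of all genes. Tab2, an adaptor of the kinase TAK1, stood at 447, 451 and 383 CPM in NK cells and 369, 291 and 293 CPM in ILC1s, with a log2 fold change of -0.43 ± 0.16 and an adjusted p of 0.286. Map3k14, which encodes NIK, the kinase of the slower branch, stood at 82.6, 101 and 67.1 CPM against 64.5, 62.9 and 64.7 CPM, with -0.38 ± 0.17 and an adjusted p of 0.341. Of the core IKK complex, Chuk, which encodes IKK-alpha, had a log2 fold change of -0.14 ± 0.14, and Ikbkb, which encodes IKK-beta, -0.078 ± 0.20. Without ILC1 replicate 3 they were -0.22 and -0.30, and without NK replicate 3 Chuk was -0.084. These genes, and Ikbkg below, fall outside the naming rule and were named after their values were seen. Ikbkg, which encodes NEMO, the regulatory part of the complex, had -0.33 ± 0.15 without overlap. Within the fibroblast-rich libraries Tab2 was -0.22, Map3k14 -0.074, Ikbkg -0.093, Chuk -0.30 and Ikbkb -0.25.

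Of 20 adaptor and ubiquitin ligase genes 0 were called by edgeR. At an unadjusted p under 0.05 there were 4, all lower, beside 15.8% of all genes. DESeq2 called 2 lower, Prkcq and Traf1, beside 6.98% of all genes. The list had 3 positive and 17 negative log2 fold changes and a median of -0.22, against 0.081 for all genes. Prkcq encodes protein kinase C theta, which links antigen and activating receptors to IKK. It stood at 202, 194 and 150 CPM in NK cells and at 108, 86.9 and 70.9 CPM in ILC1s, a 2.05-fold higher mean in NK cells. Its log2 fold change was -1.04 ± 0.21, with an adjusted p of 0.135. Traf1, an adaptor of TNF receptors and itself a known NF-kappaB target, stood at 307, 308 and 253 CPM against 229, 205 and 189 CPM, with -0.48 ± 0.15 and an adjusted p of 0.239. The medians of the kinase and adaptor lists were -0.30 and -0.37 without ILC1 replicate 3, -0.29 and -0.23 without NK replicate 3, and -0.25 and -0.21 within the fibroblast-rich libraries. Within those libraries Prkcq was -0.62 and Traf1 -0.22.

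Of 12 deubiquitinase and other brake genes 0 were called by edgeR, with 1 higher and 1 lower at an unadjusted p under 0.05. Over all genes 15.8% had such a p. DESeq2 called Otulin lower, beside 6.98% of all genes. The median log2 fold change of the list was -0.064, or -0.038 without NK replicate 3. Otulin, whose product cuts the linear ubiquitin chains that activate IKK, stood at 151, 195 and 118 CPM in NK cells and 91.3, 90.8 and 99.6 CPM in ILC1s, with -0.72 ± 0.20 and an adjusted p of 0.214. Commd1, whose product promotes the degradation of RelA, went the other way, at 12.9, 14.01 and 18.3 CPM against 18.7, 23.8 and 28.1 CPM, with 0.64 ± 0.24 and an adjusted p of 0.290. Neither gene overlapped between cell types. Within the fibroblast-rich libraries Otulin was -0.37 and Commd1 0.22.

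**Figure D5:**
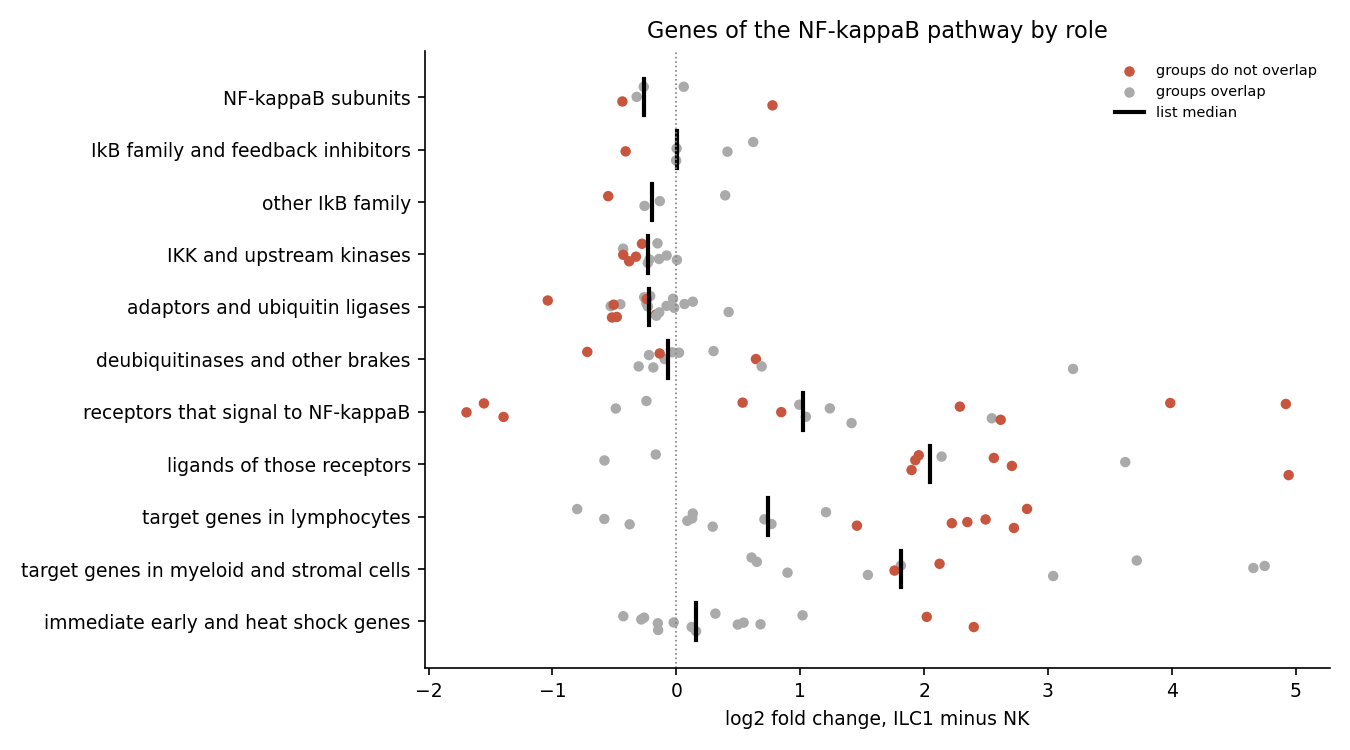
Log2 fold change (ILC1 minus NK) of each tested gene of the pathway lists, by role. Red points are genes whose libraries do not overlap between cell types, grey points overlap, and black lines are list medians. The kinase and adaptor lists lie mostly below 0, at medians of -0.23 and -0.22, and the receptor, ligand and target lists spread over several log2 units.

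The receptor genes spread over log2 fold changes of -1.69 to 4.92, where the members ran from -0.44 to 0.78. The upper end was Tlr2, named after its values were seen. It was 1.56 without ILC1 replicate 3 and 0.49 within the fibroblast-rich libraries. Of 16 receptor genes edgeR called 0, with 5 higher and 3 lower at an unadjusted p under 0.05, beside 15.8% of all genes. The list median was 1.02, which was 0.33 without ILC1 replicate 3 and 0.33 within the fibroblast-rich libraries. Both chains of the IL-18 receptor, a cytokine receptor of the MyD88 branch, had lower values in every ILC1 library than in any NK library. Il18r1 was at 399, 363 and 280 CPM in NK cells and 141, 108 and 73.7 CPM in ILC1s, with a log2 fold change of -1.69 ± 0.28 and an adjusted p of 0.106. Il18rap was at 487, 522 and 390 CPM against 222, 181 and 128 CPM, with -1.39 ± 0.24 and an adjusted p of 0.114. NK replicate 3 lay below the other NK libraries in both genes but well above the ILC1 libraries. Within the fibroblast-rich libraries Il18r1 was -1.17 and Il18rap -0.95. With DESeq2 both chains and Cd27 were called lower and Tnfrsf9 and Ltbr higher, beside 6.98% of all genes called.

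Among the ligands 10 of 12 were tested and edgeR called 0, with 6 higher and 1 lower at an unadjusted p under 0.05. Over all genes 15.8% had such a p. DESeq2 called 5 of the ligands higher (Lta, Tnf, Tnfsf4, Tnfsf9 and Tnfsf11), beside 6.98% of all genes called in either direction. The list median was 2.05, or 1.34 without ILC1 replicate 3 and 0.30 within the fibroblast-rich libraries. Lta, which encodes lymphotoxin alpha, stood at 6.33, 11.7 and 7.44 CPM in NK cells and 32.8, 28.99 and 35.4 CPM in ILC1s, with 1.93 ± 0.28 and an adjusted p of 0.103. Tnfsf4, which encodes the OX40 ligand, stood at 6.04, 6.05 and 3.31 CPM against 20.3, 19.8 and 17.4 CPM, with 1.90 ± 0.31 and an adjusted p of 0.105. In both genes ILC1 replicate 3 lay near the other ILC1 libraries. Within the fibroblast-rich libraries Lta was 2.05 and Tnfsf4 2.60. Il1b, a macrophage cytokine named after its values were seen, stood at 4348 CPM in ILC1 replicate 3 and at 17.7 to 125 CPM in the others.

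Of 16 target genes known in lymphocytes edgeR called 0, with 5 higher and 1 lower at an unadjusted p under 0.05. Over all genes 15.8% had such a p. In this list 13 had positive log2 fold changes and the median was 0.74, or 0.42 without ILC1 replicate 3 and 0.19 within the fibroblast-rich libraries. Il2ra, the IL-2 receptor alpha chain and a gene that c-Rel is known to induce, stood at 11.6, 14.9 and 20.7 CPM in NK cells and 88.7, 72.7 and 78.7 CPM in ILC1s. Its log2 fold change was 2.35 ± 0.24 with an adjusted p of 0.0579. Il2ra was called by DESeq2 and by limma-voom with and without library weights. It was also called by edgeR without NK replicate 3 and with no low-count filter. Bcl2a1d, a survival gene of the BCL-2 family, has near-identical copies that can share reads. It stood at 7.13, 9.85 and 7.48 CPM against 31.3, 30.9 and 112 CPM, with 2.83 ± 0.60 and an adjusted p of 0.149. Of this list DESeq2 called Il2ra and Bcl2a1d, beside 6.98% of all genes. Within the fibroblast-rich libraries Il2ra was 1.96 and Bcl2a1d 2.05. Of 12 targets known in myeloid and stromal cells 11 were tested, 0 were called by edgeR, DESeq2 or limma-voom, 1 was higher at an unadjusted p under 0.05, and the median was 1.81. It was 5.44 without NK replicate 3, 1.24 without ILC1 replicate 3 and 0.39 within the fibroblast-rich libraries. Nos2, the inducible nitric oxide synthase, was at 172 CPM in ILC1 replicate 3 and at 0.872 to 7.39 CPM in the others, and Cxcl2, a neutrophil chemokine, at 2329 CPM and at 10.9 to 167 CPM. Both were highest in the library where the macrophage genes were highest.

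Of 15 immediate early and heat shock genes edgeR called 0, with 1 (Atf3) higher at an unadjusted p under 0.05. DESeq2 called the same gene. Over all genes 15.8% had such a p and DESeq2 called 6.98%. The list median was 0.16. The median was 0.31 without NK replicate 3, 0.025 without ILC1 replicate 3 and -0.042 within the fibroblast-rich libraries. Atf3 stood at 26.4, 24.8 and 135 CPM in NK cells and 201, 208 and 573 CPM in ILC1s, with 2.40 ± 0.86 and an adjusted p of 0.286. Egr2 stood at 15.9, 4.41 and 41.2 CPM against 50.3, 55.3 and 144 CPM, with 2.02 ± 0.87 and an adjusted p of 0.336. Without NK replicate 3 they were 3.68 and 3.04, without ILC1 replicate 3 1.69 and 1.33, and within the fibroblast-rich libraries 0.60 and 0.36. In both, as in Nfkbia, NK replicates 1 and 2 were the lowest libraries and ILC1 replicate 3 the highest. Fos and Jun of the same list did not follow this order.

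Limma-voom with library weights called more of these genes, as it did of all genes (15.3%). They were Bcl3 and Otulin lower, 5 adaptor genes lower (Prkcq, Traf1, Traf5, and Rnf31 and Sharpin of the linear ubiquitin ligase), 2 receptors higher and 3 lower, and 4 ligands higher and 1 lower. It also called 4 lymphocyte targets higher and 3 lower, 3 myeloid and stromal targets higher, and 4 immediate early genes higher (Atf3, Egr1, Egr2 and Fosb) and 1 lower (Jund). Of the kinase list it called 0 genes, as did edgeR, DESeq2 and limma-voom, with 1 at an unadjusted p under 0.05 by edgeR. With no low-count filter, edgeR called Cd27, Il18r1 and Il18rap lower and Lta, Tnfsf4, Tnfsf11 and Il2ra higher. Over all 26185 genes of that fit it called 91 lower and 47 higher. Without NK replicate 3, edgeR called Cd27 (-1.77) and Il18r1 (-1.82) lower and Tnfsf4 (1.67), Il2ra (2.61), Cxcl1 (7.71), Cxcl10 (3.15) and Fosb (1.25) higher, in log2 fold change. That fit called 3% of all genes. With all libraries these genes were, in the same order, at -1.55, -1.69, 1.90, 2.35, 1.81, 1.76 and 0.68, and edgeR called none of them.

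Over the other lists, a promoter match to the NF-kappaB consensus was found for 1 of 8 genes with a window in the IKK and upstream kinase list (Map3k7). It was found for 3 of 16 adaptor and ligase genes, 4 of 14 receptor genes and 1 of 9 ligand genes (Ltb). Of the targets it was found for 5 of 13 in lymphocytes (Il2ra among them). It was also found for 5 of 9 in myeloid and stromal cells (Cxcl1 and Cxcl2 among them). Of immediate early and heat shock genes it was 5 of 13, of brake genes 3 of 8 and of other IkB genes 1 of 4. Over all gene symbols with a window the share was 8.23%. These counts describe windows and were not tested.

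For each member, the gene outside the lists with the most similar pattern was found by Pearson correlation of log2 CPM over the 6 libraries among 8687 genes with a mean of at least 10 CPM. The points share their libraries, and with 6 points high values of r are common. Relb was most like Cd7 (r = 0.999), at 231, 298 and 185 CPM in NK cells and 126, 122 and 108 CPM in ILC1s, and 300 genes reached an r above 0.95 with it. Rel was most like Abcc4 (0.996), Birc3 like Rap1gap2 (0.997), Nfkbia like Dusp6 (0.996) and Nfkbie like Rab7 (1.00). Nfkb1 was most like Rnf139 (0.994), Nfkb2 like Csnk1e (0.996), Rela like Cnnm3 (0.997) and Nfkbiz like N4bp1 (0.997). Tnfaip3 had the weakest best match, Ahr (0.974), and 3 genes above 0.95, beside 123 for Rel and 205 for Nfkbie.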

How the data were processed

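The authors deposited raw gene counts, a table of 55291 symbols and 6 columns. The build GRCm38 is listed, and HISAT2 2.1.0 is named beside featureCounts 2.0.1, per the submitters' processing notes. The sources used here do not give the annotation release, whether strand was used, or how reads with several matches were counted. Oligo(dT) beads selected the mRNA and reads were single-end and of 50 bases, per the labels' protocols. Since no molecular identifiers are described, the counts may hold PCR copies, and limits from counts cover counting error only. A count of 0 allows up to 3 counts, or 0.144 to 0.174 CPM.

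Groups came from the labels. Counts were tested in edgeR 4.0.16 (R 4.3.3) with TMM factors, filterByExpr, robust quasi-likelihood fits, cell type as the only term and an adjusted p threshold of 0.05. Alternatives used DESeq2 1.42.0, limma 3.58.1 (voom), other normalizations and filters, a replicate block, library sets as a term, and each library left out. RPKM used merged exon lengths of the GENCODE annotation of GRCm38. Promoter windows came from RefSeq. No pair of libraries agreed within sampling noise (smallest median chi-square 2.79). The members, the lists and the library sets were chosen with earlier results of these data known. Named were all members, the 2 genes of smallest p in each pathway list, up to 3 genes of highest level in each marker list, and the most similar gene of each member.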

Additional observations from a re-analysis of the deposited data

How the results depend on the processing

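The count of genes called higher and lower in ILC1s was 11 and 1. It was 47 and 91 with no low-count filter, 426 and 584 with DESeq2, 1127 and 1085 with limma-voom and library weights, and 16 and 17 with library sets as a term, and the lower count was 2 with a minimum mean of 5 CPM and with limma-voom. With the replicate block it was 0 and 0 (1584 genes at an unadjusted p under 0.05), and 0 members were called. Same-numbered libraries correlated at -0.363, -0.355 and -0.564 in their deviations from the group means. NK replicate 3 and ILC1 replicate 3, each set apart in its group, weigh on these values. They therefore cannot decide whether the numbers pair libraries, and the labels do not say. With 1 library left out, the higher count ranged from 0 to 250 and the lower count from 0 to 199, both highest without NK replicate 3. The count of members called higher ranged from 0 to 1 (Nfkbia, log2 fold change 1.14, without NK replicate 3). Members called lower were 2 with library weights (Relb -0.42, Birc3 -0.56) and 0 in every other alternative. Rel, Relb, Nfkb1 and Birc3 kept their sign in all 15 alternatives. Tnfaip3 was 0.014 with RLE factors and with DESeq2, 0.018 with no filter and 0.065 with library weights, and ranged from -0.10 to 0.12 with 1 library left out. Nfkbiz was -0.063 with upper-quartile factors, -0.012 with the 5 CPM minimum, -0.061 with limma-voom, -0.33 with library weights, -0.064 with the block and -0.57 with library sets, and ranged from -0.40 to 0.19 with 1 library left out. Nfkbie was -0.14 with library weights and ranged from -0.15 to 0.65 with 1 library left out. Library sets turned Rela to 0.11 and Nfkbia to -0.17, and Nfkb2 ranged from -0.037 to 0.15 with 1 library left out. The cause of these changes was not tested. The median of all genes was 0.24 with no filter and otherwise between 0.031 and 0.11. A gene at 0 counts may hold up to 3 counts at this depth.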

Other observations

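The values of 4 genes known as NF-kappaB targets or receptors in other cell types were as follows. Il1rl1, the receptor of IL-33, stood at 6.33, 1.39 and 67.3 CPM in NK replicates 1 to 3 and at 79.7, 96.4 and 1.16 CPM in ILC1 replicates 1 to 3. Vcam1, an adhesion molecule of stromal and endothelial cells, stood at 0.499, 0.462 and 68.98 CPM against 78.9, 120.0 and 5.38 CPM, and Cxcl1, a neutrophil chemokine, at 2.14, 1.90 and 357 CPM against 405, 610.5 and 255 CPM. In each of these genes NK replicate 3 lay far above NK replicates 1 and 2. Ptgs2, the inducible cyclooxygenase, was at 1321 CPM in ILC1 replicate 3 and at 9.03 to 125 CPM in the other 5 libraries. These genes were named after their values were seen, and no cause was tested.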
